A study of Mus musculus with 36 samples.

Results

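The mouse Zeb, Snail and Twist transcription factors are 6 genes, Zeb1, Zeb2, Snai1, Snai2, Twist1 and Twist2, chosen by symbol from the 20720 nuclear genes listed in the count tables, and all 6 were found. They were described in single cells from the left ventricle of C57BL/6 male mice of 8 weeks, taken from the infarcted area with its border or from the matching area of sham hearts. The groups were sham at day 1 (4 plates of sorted wells), sham at day 14 (8 deposited plates, 7 counted), ischemia-reperfusion (IR, in which the left anterior descending artery was tied for 1 hour and released) at day 1 (9 plates), at day 3 (7 plates, 6 with cells) and at day 14 (3 plates), and myocardial infarction (MI, permanent ligation of the same artery) at day 3 (5 plates). The labels name no transgene or deleted gene in any group. SORT-seq primes polyadenylated RNA in each well and tags every captured molecule with a unique molecular identifier (UMI), so a count is a number of tagged molecules. Wells with at least 1000 UMIs were taken as cells, 3146 of 13824 wells, of which 3093 were used after wells that repeated across plates were left out.

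The 3 families bind E-box sequences in DNA and mostly repress transcription. Zeb1 and Zeb2 carry clusters of zinc fingers at each end and recruit CtBP corepressors, Snai1 and Snai2 are zinc-finger repressors that act through histone deacetylases, and Twist1 and Twist2 are basic helix-loop-helix (bHLH) proteins that pair with E proteins and are held back by Id proteins. They are best known for driving epithelial-to-mesenchymal transition, downstream of transforming growth factor beta (TGF-beta) among other signals. In the heart they are studied in valve formation, in fibroblasts and in endothelial cells that take on mesenchymal traits, and Zeb2 is also a factor of tissue macrophages.

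In the RefSeq annotation of GRCm38.p6, Zeb2 spans chr2:44983512-45117442, Snai1 chr2:167538195-167542814, Snai2 chr16:14705852-14709395, Twist1 chr12:33957671-33959831 and Twist2 chr1:91801461-91848034. Snai1 and Twist1 were the members called higher in MI d3 fibroblasts against sham, so the 250 bases before their RefSeq start sites (GRCm38.p6, plus strand, chr2:167537945-167538194 for Snai1 and chr12:33957421-33957670 for Twist1) are shown 5′ to 3′, with the E-box CACCTG, the motif bound by Zeb and Snail factors, in capitals.
Snai1: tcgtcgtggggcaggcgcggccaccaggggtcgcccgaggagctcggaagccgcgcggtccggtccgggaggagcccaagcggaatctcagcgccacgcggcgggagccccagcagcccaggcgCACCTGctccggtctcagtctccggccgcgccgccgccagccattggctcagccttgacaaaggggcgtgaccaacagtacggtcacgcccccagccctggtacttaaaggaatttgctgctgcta
Twist1: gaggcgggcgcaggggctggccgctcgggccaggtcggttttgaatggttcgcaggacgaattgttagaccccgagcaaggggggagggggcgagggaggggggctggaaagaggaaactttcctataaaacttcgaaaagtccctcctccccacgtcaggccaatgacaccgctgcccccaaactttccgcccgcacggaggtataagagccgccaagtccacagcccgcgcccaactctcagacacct
Both strands were searched for CACCTG, which reads CAGGTG on the other strand. Snai1 held 1 match, starting 126 bases before its start site (position -126), and Twist1 held none. Of the 4 members with a listed promoter 1 held a match, as did 1 of the 8 genes with a listed promoter that the factors are known to control, where a gene with several listed promoters counts once. Counted by promoter and not by gene, 5657 of all 32851 listed promoters held one, 17.2%.

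In the cells used, Zeb2 gave 4982 UMIs, Snai1 1775, Zeb1 1676, Twist1 807, Snai2 462 and Twist2 261. Levels are UMIs per 1000000 UMIs of the summed cells (CPM), with 95% exact Poisson intervals that cover counting error only. Capture differs between genes, so levels were compared between cells and not between genes. Cells were grouped without use of the 6 genes and named by marker genes as cardiomyocyte-like, fibroblast-like and so on (the suffix is left off here): 1152 cardiomyocytes, 620 macrophages, 402 endothelial cells, 292 fibroblasts, 156 neutrophils, 21 mural cells (pericytes and smooth muscle) and 12 erythrocytes, while 438 cells fitted no marker list. Mean depth per cell ran from 3591 UMIs in sham d14 to 23882 in MI d3. The MI plates were the deepest and carry a separate protocol label, so ligation type and preparation cannot be told apart. The same holds for injury and preparation in every comparison of MI d3 with sham. Some plates share a mouse, so p-values over plates measure the spread between plates, which may be technical. Wells of sham d14 replicate 2 repeated those of replicate 7 (35 wells) and of IR d3 replicate 6 (16 wells), and IR d1 replicate 9 repeated 16 wells of replicate 5. Sham d14 replicates 2 and 7 were averaged as 1 plate.

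Each factor had its own distribution over cell classes. Zeb2 was at 296 CPM [286 to 306] in macrophages, which held 68.1% of its UMIs, 2269 of the 3385 from MI d3. By group the share in macrophages was 60.7% in sham d1, 18.2% in sham d14, 65.4% in IR d1, 85.3% in IR d3, 19.0% in IR d14 and 67.7% in MI d3. Mural cells had 211 CPM [182 to 243], although 84 of their 186 Zeb2 UMIs came from 1 cell, and fibroblasts had 117 [110 to 125]. Neutrophils (77.4), endothelial cells (37.7) and cardiomyocytes (22.3 [18.2 to 27.1]) lay lower. A Zeb2 UMI was seen in 84.4% of macrophages (median depth 12245 UMIs) and 6.60% of cardiomyocytes (2290 UMIs). With every cell thinned to 1000 UMIs these shares were 25.9% and 2.00%.

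Zeb1, which lies on chromosome 18, had a different order. Summed over all groups, endothelial cells had 143 CPM [130 to 156], and mural cells (139 [116 to 166], 56 of 123 UMIs from 1 cell) did not differ from them beyond counting error. Fibroblasts had 82.1 [76.2 to 88.3], neutrophils 40.0, cardiomyocytes 36.0 [30.7 to 41.9] and macrophages 11.7 [9.82 to 13.9]. The order of endothelial cells and fibroblasts depended on the group, since 499 of the 726 fibroblast UMIs of Zeb1 were from MI d3. In sham d1 fibroblasts had 230 CPM [157 to 327] and endothelial cells 119.5 [93.5 to 151], in sham d14 190 [111 to 304] and 127 [90.6 to 174], and in MI d3 71.1 [65.0 to 77.6] and 152 [130 to 176]. The Pearson correlation of Zeb1 with Zeb2 over 21 sums of a class in a group, which share plates and depth, was -0.49.

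Over all groups pooled, most UMIs of Snai1, Twist1 and Twist2 lay in fibroblasts. Fibroblasts had 172 CPM of Snai1 [164 to 181] and held 85.9% of its UMIs, against 61.2 in mural cells (38 of 54 UMIs from 1 cell), 35.0 in neutrophils, 25.7 [20.4 to 31.9] in endothelial cells, 5.86 in macrophages and 1.08 in cardiomyocytes (5 UMIs). MI d3 gave 1347 of the fibroblasts' UMIs of Snai1. Fibroblasts held 88.9% of the Snai1 UMIs in MI d3, 67.8% to 77.8% in the IR groups and 75.0% in sham d14 (6 UMIs), but 30.8% in sham d1 (4 UMIs), where endothelial cells also had 4. Twist1 was at 84.1 CPM [78.2 to 90.4] in fibroblasts with 92.4% of its UMIs there, 17.0 in mural cells, 2.54 in endothelial cells and 1.92 in macrophages. By group the fibroblast share of Twist1 was 85.7% to 93.9% in IR and MI, 50.0% in sham d14 (4 UMIs) and 25.0% in sham d1 (1 UMI). No Twist1 UMI was seen in 1152 cardiomyocytes, which by the limit of 3 counts allows a share of cells with a UMI of up to 0.260%, at a median depth of 2289.5 UMIs. Twist2 was at 25.9 CPM [22.6 to 29.5] in fibroblasts with 88.1% of its UMIs, and at 1.90 or less in each of endothelial cells, macrophages, mural cells, cardiomyocytes and neutrophils.

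Snai2 was split between fibroblasts, 27.4 CPM [24.0 to 31.0], and endothelial cells, 26.0 [20.7 to 32.3], whose pooled levels did not differ beyond counting error. The order differed by group. In sham d1 endothelial cells had 44.8 CPM [29.5 to 65.2] of Snai2 (27 UMIs) and fibroblasts 7.43 [0.188 to 41.4] (1 UMI), while in MI d3 they had 16.2 [9.74 to 25.3] (19 UMIs) and 26.6 [22.9 to 30.7] (187 UMIs). It was lower in cardiomyocytes (4.77) and macrophages (3.06). The shares of fibroblasts with a UMI were 57.2% for Snai1, 53.1% for Twist1, 33.6% for Twist2 and 31.5% for Snai2 at a median of 17168 UMIs, while macrophages, at 12245 UMIs, had 6.29%, 3.06%, 1.94% and 4.68%.

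**Figure D1:**
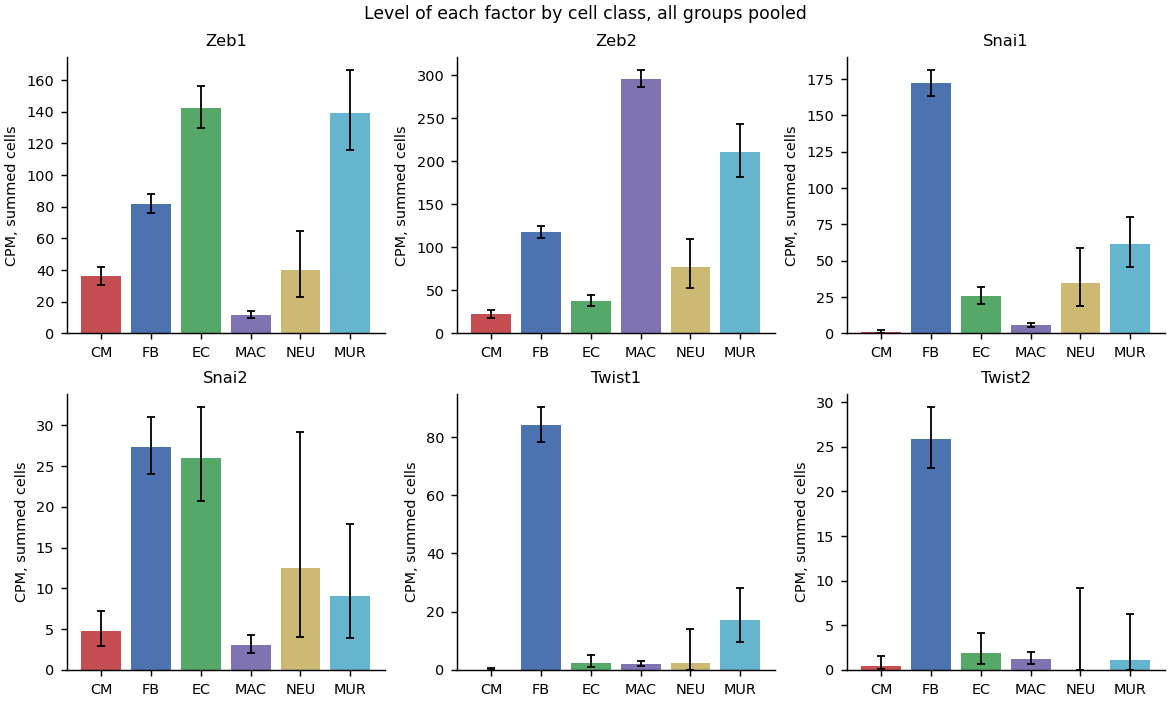
Level of each of the 6 genes in 6 cell classes, in CPM over the summed cells of all groups (bars), with 95% exact Poisson intervals (whiskers) that cover counting error only. CM, cardiomyocyte; FB, fibroblast; EC, endothelial; MAC, macrophage; NEU, neutrophil; MUR, mural. Over the pooled groups Zeb2 stands highest in macrophages (296 CPM), Zeb1 in endothelial and mural cells (143 and 139, an order that turns between fibroblasts and endothelial cells in sham d1 and d14), and Snai1, Twist1 and Twist2 in fibroblasts (172, 84.1 and 25.9).

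Of the 34 cells with a UMI of all 6 genes, 33 were fibroblasts. Of 292 fibroblasts, 257 had a UMI of at least 1 member, at the deepest median of the named classes. Snai1 and Twist1 were seen together in 129 fibroblasts, with 167 holding Snai1 and 155 Twist1. In macrophages 398 of 620 cells held exactly 1 member. Among the 5 genes whose levels over the 21 sums were most like each member, by Pearson correlation of log2(CPM + 10), were Pid1 and Ctsz (both 0.92) for Zeb2, Mast4 (0.94) and Timp3 (0.93) for Zeb1, Aldh18a1 (0.89) and Dbn1 (0.88) for Snai1, Stard13 (0.87) and Wt1 (0.85) for Snai2, Gdf6 (0.96) and Vgll3 (0.96) for Twist1, and Pcdh9 (0.98) and Tcf21 (0.97) for Twist2. Snai1 and Twist1 correlated at 0.79 and Twist1 and Twist2 at 0.68.

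The fibroblasts fell into 2 clusters, and the members differed between them. Cluster 13 (82 cells) was led by Pi16, Comp and Scara5 and held every sham fibroblast, and cluster 5 (210 cells), led by Cxcl5, Tnc, Timp1 and Lox, held 131 of 132 MI fibroblasts. Zeb1 was at 186 CPM [152 to 225] in cluster 13 and 75.0 [69.2 to 81.1] in cluster 5. Twist1 went the other way, at 44.3 and 86.8 CPM, and so did Snai1, at 103 and 177 CPM. Zeb2 (108 and 118), Snai2 (30.1 and 27.2) and Twist2 (31.9 and 25.5) were close in both. A comparison of MI d3 with sham fibroblasts is therefore also one of cluster 5 with cluster 13. Fibroblasts of IR d1 and IR d3 lay in both clusters, and most of those of IR d14 lay in cluster 13.

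Does injury change the members inside fibroblasts? Counts were summed per plate over plates with at least 5 fibroblasts and tested with edgeR's quasi-likelihood test, adjusted over all genes in the fit by the Benjamini-Hochberg method. The MI and IR d3 comparisons share their sham plates, and the control side rests on few cells, 3 sham d1 plates and 1 sham d14 plate. The 2 sham groups were weighted equally, so the 1 sham d14 plate, of 8 fibroblasts, counts as much as the 3 sham d1 plates together. That plate was not among the plates left out in turn. Of the 6 members 2 passed in MI d3 against sham, where 11.2% of all genes did, and both were higher. Of the 5 with at least 20 UMIs, 1 passed in IR d1 against sham d1 (8.39% of all genes) and 0 in IR d3 against sham (0.691%). In IR d3 1 member, Twist1, had an unadjusted p under 0.05, and DESeq2 called 0. Of all genes called in MI d3, 78.6% were higher under the TMM scaling used, 42.8% under relative log expression (RLE) scaling and 51.6% by totals alone. In simulated fibroblast sums, TMM scaling also shifted unchanged genes upward, more than RLE scaling or totals did.

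Snai1 in sham fibroblasts was at 0, 14.9 and 109 CPM on the day 1 plates and 58.8 on the day 14 plate. The 5 MI d3 plates had 140, 147, 188, 229 and 259 CPM, all above every sham plate. Snai1 rose by 2.58 ± 0.63 on the log2 scale (SE, adjusted p = 0.00585, 1347 UMIs against 7). In this comparison the median gene rose by 1.24 with TMM scaling, 0.72 with RLE scaling and 0.85 by totals alone, and Snai1 stood at 1.99 with RLE scaling (adjusted p = 0.0536) and 2.13 by totals (0.0327). Without sham d1 replicate 4 the rise was 3.34 (0.00382).

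The IR d1 plates had 66.7, 93.2, 118, 187 and 218 CPM of Snai1 and overlapped the highest of the sham d1 plates. The log2 difference was 2.30 ± 0.79 (adjusted p = 0.0633, 83 UMIs against 4), which missed the threshold. It passed without sham d1 replicate 4 (0.0409) or IR d1 replicate 5 (0.0422). On the IR d3 plates Snai1 was at 0, 24.9, 63.0 and 111 CPM, within the sham range apart from the highest plate (adjusted p = 0.569), and on the IR d14 plates at 41.6 and 52.4. MI d3 was higher than IR d3 by 1.52 ± 0.42 on the log2 scale (adjusted p = 0.0249), and 1 of 6 members passed there against 5.45% of all genes. That call was lost with RLE scaling (1.25, adjusted p = 0.0739) and without any of IR d3 replicate 3 (0.0834), 5 (0.0612) or 7 (0.0771) or MI d3 replicate 4 (0.0660). Without IR d3 replicate 4, which held 31 of the 39 IR d3 UMIs, it stood at 2.48 (0.0125).

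Twist1 was at 0, 0 and 36.4 CPM on the sham d1 plates and 19.6 on the sham d14 plate, from 2 UMIs in all. Every injured plate lay above them: 49.4, 66.7, 72.6, 99.9 and 125 CPM at IR d1, 39.5, 61.1, 126 and 174 at IR d3, 49.9 and 105 at IR d14, and 57.8, 92.3, 96.0, 97.1 and 98.1 at MI d3. The ratio of the summed levels, with its 95% counting interval, was 7.79 [2.15 to 64.5] for MI d3, 10.02 [1.72 to 404] for IR d1 and 6.48 [1.67 to 55.6] for IR d3. Twist1 rose in MI d3 (adjusted p = 0.00608, 617 UMIs against 2) and in IR d1 (0.0281, 49 against 1), and missed the threshold in IR d3 (0.10003, 35 against 2), although it passed with plates of 1 fibroblast or more included (0.0426). Without sham d1 replicate 4, which held 1 of the control UMIs, the adjusted p was 0.00554 in MI d3. In IR d1 it was 0.0289, but the sham d1 control then held no Twist1 UMI. With RLE scaling the adjusted p was 0.0585 in MI d3 and 0.0751 in IR d1. The IR d1 call was lost without sham d1 replicate 1 (0.116) or 3 (0.228) or IR d1 replicate 7 (0.0691), and held without replicate 9 (0.0378).

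The other members did not pass against sham in fibroblasts. Zeb1 ranged from 72.7 to 443 CPM on the sham d1 plates, with 78.4 on the sham d14 plate, and from 55.3 to 86.9 at MI d3, a log2 difference of -0.44 ± 0.54 (adjusted p = 0.636). Zeb2 was at 31.7, 44.6, 145 and 176 CPM on the 4 sham plates and 95.0 to 140 at MI d3, which lay inside the sham range (0.62 ± 0.44, adjusted p = 0.402). The plate at 176 CPM was the sham d14 plate, where macrophage markers in fibroblasts summed to 3291 CPM, against 72.7 or less on the sham d1 plates. Twist2 was at 31.7 to 74.4 CPM in sham and 16.2 to 35.2 at MI d3 (-0.38 ± 0.73, adjusted p = 0.752).

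Snai2 in fibroblasts differed between the days of reperfusion. The IR d1 plates had 0, 0, 7.26, 7.84 and 10.97 CPM (4 UMIs) and the IR d3 plates 24.9, 32.4, 45.0 and 122 CPM (21 UMIs), with no overlap. Another 14 UMIs at IR d1 lay on plates with fewer than 5 fibroblasts, which were not in the test, and all 51 IR d1 fibroblasts together had 19.2 CPM [11.4 to 30.4] against 50.1 [32.4 to 73.9] in all 56 at IR d3. Snai2 rose by 2.87 ± 0.74 on the log2 scale from day 1 to day 3 (adjusted p = 0.00981), the 1 of 6 members to pass where 10.6% of all genes did. Among MI d3 plates it was at 15.5 to 32.4 CPM, and on the sham plates at 0, 0, 36.4 and 98.0. The call was made in 12 of 15 other settings. It was lost with cells holding other classes' markers left out (2.39, adjusted p = 0.0593) and with plates of 1 cell or more included (1.60, 0.0898). It was also lost with the replicate number added to the model (0.0908).

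**Figure D2:**
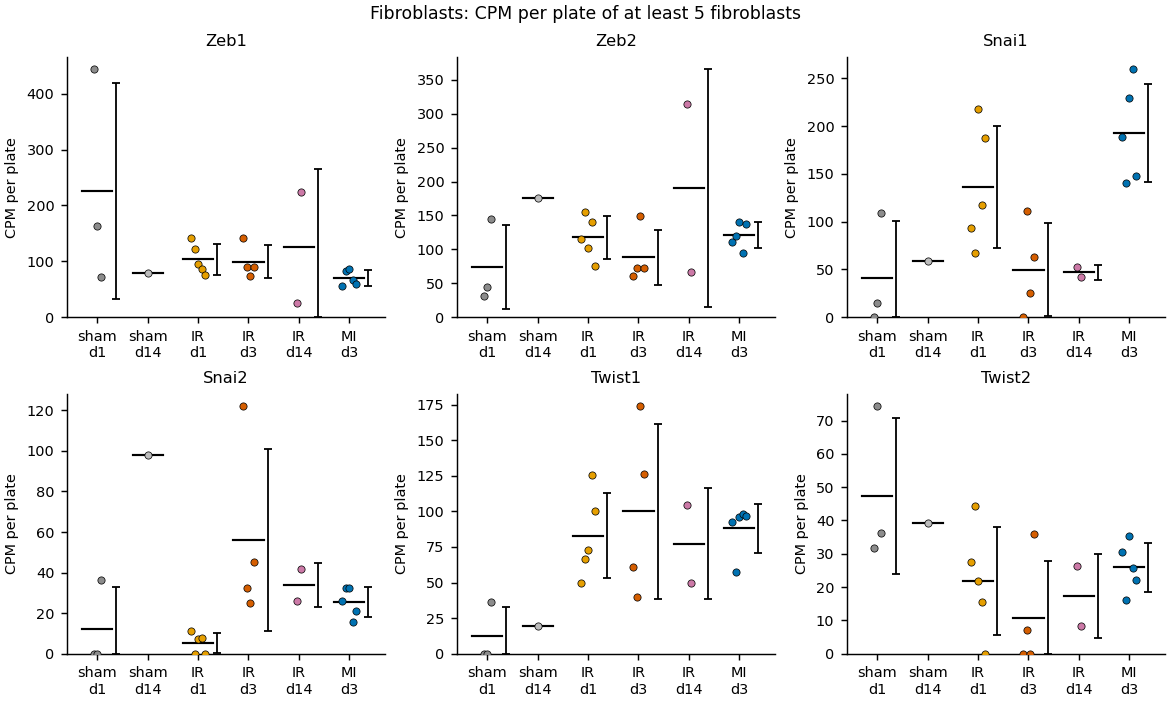
CPM of each of the 6 genes in fibroblasts, 1 point per plate with at least 5 fibroblasts, by group, with the mean (line) and SD (bar, where a group has 2 or more plates, drawn to 0 where it would go below). For Snai1 the 5 MI d3 plates (140 to 259 CPM) lie above the 4 sham plates, and for Twist1 all injured plates (39.5 CPM or more) do.

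Markers of other cells moved with these groups. The 10 cardiomyocyte markers were all seen in fibroblasts and summed to 1814 to 10548 CPM on the sham d1 plates, 62.5 to 516 at IR d1, 1241 to 6768 at IR d3 and 24.7 to 214 at MI d3. The 10 macrophage markers summed to 0 to 72.7 CPM on the sham d1 fibroblast plates (4 of 10 seen), 3291 on the sham d14 plate, 7.84 to 203 at IR d1, 49.7 to 2739 at IR d3 and 292 to 354 at MI d3. The 9 mural markers, among them Acta2 and Tagln, which activated fibroblasts also use, summed to 513 CPM in sham d1, with Rgs5, Kcnj8 and Myh11 at 0, and to 2076 in MI d3, with Rgs5 at 0. Their part in the differences was not tested. With fibroblasts holding other classes' markers left out, Snai1 passed in MI d3 (6.05, adjusted p = 0.0118, 1331 UMIs against 4) and Twist1 did not (0.0650).

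Within a cluster, Snai1 in cluster 5 was at 105 CPM [84.3 to 128] in IR d1 (41 cells), 72.4 [48.1 to 105] in IR d3 (36 cells) and 192 [182 to 202] in MI d3 (131 cells). Twist1 in cluster 5 was at 81.7, 80.2 and 87.9 CPM in the same groups, with overlapping intervals. In cluster 13 Snai1 was at 29.7 CPM in sham d1 (4 UMIs) and 431 in IR d1, where 29 UMIs lay in 4 of 10 cells.

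Genes around the factors were counted from lists. Of 14 corepressors and chromatin partners, 5 rose and 0 fell in MI d3 fibroblasts, where 11.2% of all genes were called and the share of calls upward depended on the scaling as given above, among them Ezh2 (347 UMIs against 1, adjusted p = 0.0244), Smarca4 (log2 1.96, 0.0316), Hdac1 (1.93, 0.0225) and Rbbp7 (1.64, 0.0106), and the list's median of 1.497 lay near the 1.24 of all genes. Of the genes that the factors are known to control, 9 of 12 were tested, 5 rose and 1 fell. The risers included the fibronectin receptor subunit Itga5 (5.42, adjusted p = 0.00944), fibronectin Fn1 (2.49, 0.00374) and N-cadherin Cdh2 (2.08, 0.0120), and desmoplakin Dsp fell by 5.704 (0.00270, 2 UMIs against 7). The list's median was 1.28, against 1.24 for all genes. Summed cardiomyocyte markers in fibroblasts also went down, from 4414 CPM in sham d1 to 126 in MI d3. Their part in the Dsp value was not tested. Among 8 bHLH partners and Id inhibitors Id1 was seen in 360 UMIs in MI d3 and 0 in sham (adjusted p = 0.00609), and in IR d1 the E protein gene Tcf4 fell by 1.81 (0.000513). Among 10 mesenchymal transcription factors Prrx1 rose in MI d3 by 1.24, the size of the median gene (0.0457), while Tcf21 and Sox9 fell in IR d1 by 2.08 (0.0409) and 1.47 (0.0225). Of 12 TGF-beta and Smad genes only Bmp4 passed in these comparisons, with a log2 change of -3.16 in MI d3 (0.000145), -3.70 in IR d1 (0.0118) and -3.63 in IR d3 (0.0154). Of 9 tested macrophage transcription factors 1 rose and 1 fell in MI d3, Runx1 with 795 UMIs against 0 and Klf4, which fell by 1.25 (0.0320).

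In endothelial cells Snai1 rose in MI d3 and Snai2 fell in IR d1. Of 4 members with at least 20 UMIs, 1 passed in MI d3 against sham (18.0% of all genes) and 1 in IR d1 against sham d1 (5.03%). None of 3 passed in IR d3 against sham (0.732%) or in IR d14 against sham d14 (0%), none of 4 in MI d3 against IR d3 (1.88%) and none of 3 in IR d3 against IR d1 (1.12%), by the same edgeR test. In these last 4 comparisons 0 members had an unadjusted p under 0.05 and DESeq2 called 0.

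Snai1 in endothelial cells was at 0 on 6 of 8 sham plates and at 15.1 and 6.73 CPM on the others. All 5 MI d3 plates were higher, at 25.0, 28.6, 38.2, 39.0 and 80.2 CPM. The log2 rise was 2.95 ± 0.73 (adjusted p = 0.00149, 48 UMIs against 5). It passed under the 16 other settings that gave a test (2.53 to 3.37) and without any 1 plate (2.68 to 4.32). The highest values came without sham d1 replicate 3 (4.32) or sham d14 replicate 1 (3.92). Leaving out cells with other classes' markers kept 126 of 410 endothelial cells (sham d14 replicate 2 counted) and gave no test here. At IR d1 the 8 plates ran from 0 to 66.2 CPM with a median of 30.5 and 3 at 0, a log2 difference of 2.06 ± 0.84 that missed the threshold (adjusted p = 0.149, 19 UMIs against 4). Without sham d1 replicate 3, which held all 4 of the control UMIs, the adjusted p was 0.0416.

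Snai2 in endothelial cells was at 22.6, 47.4, 61.4 and 83.2 CPM on the sham d1 plates. At IR d1 5 of 8 plates had none and the highest had 34.6 CPM. Snai2 fell by 2.43 ± 0.76 on the log2 scale (adjusted p = 0.0395, 5 UMIs against 27). This call was lost without sham d1 replicate 1 (0.126), 2 (0.0688) or 4 (0.0815). It was made in 9 of 14 other settings. It was lost by library totals (-2.26, 0.0663), with wells of at least 2000 UMIs (-2.49, 0.0630) and with 10 cells per plate (-3.01, 0.0686), and DESeq2 gave no adjusted p. The highest adjusted p of any setting was 0.291. At MI d3 the plates had 0, 0, 12.3, 17.999 and 23.9 CPM and the sham d14 plates 0, 25.6, 33.6 and 58.8, so the ranges overlapped. Against both sham groups this was a log2 difference of -1.40 ± 0.60 for Snai2 (adjusted p = 0.0907), which passed with RLE scaling (-1.62, 0.0454). Zeb1 was at 76.7 to 155 CPM on the sham plates and 99.9 to 255 at MI d3 (0.38 ± 0.36, adjusted p = 0.519).

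**Figure D3:**
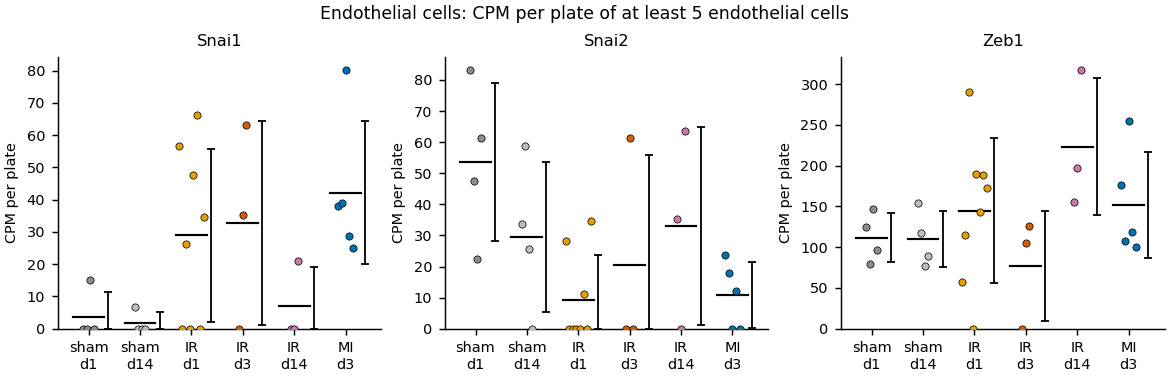
CPM of Snai1, Snai2 and Zeb1 in endothelial cells, 1 point per plate with at least 5 such cells, by group, with the mean (line) and SD (bar, drawn to 0 where it would go below). All 5 MI d3 plates lie above the sham plates for Snai1 (25.0 CPM or more against 15.1 or less), and 5 of 8 IR d1 plates have no Snai2.

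The endothelial clusters changed with injury too. Cluster 4 (219 cells, led by genes such as Timp4, Tcf15 and Cd300lg) held 82 of 109 sham d1 cells, and cluster 10 (121 cells, led by Plvap, Selp and Vwf) held 53 of 57 MI d3 cells and 44 of 76 IR d1 cells. Snai1 was at 8.24 CPM in cluster 4 and 41.7 in cluster 10, and Snai2 at 44.5 and 15.9. Inside cluster 4 Snai2 was at 52.0 CPM in sham d1 [33.9 to 76.2] and 18.7 in IR d1 [3.86 to 54.7, 3 UMIs]. Inside cluster 10, Snai1 was at 44.1 CPM in IR d1 and 40.6 in MI d3. Sham had 0 UMIs in 9 cells, too few cells to tell its level from these. Summed cardiomyocyte markers in endothelial wells were 12467 to 19869 CPM on the sham d1 plates and 12162 to 38482 on the sham d14 plates. They were 285 to 12855 at IR d1 and 47.7 to 290 at MI d3. Over all endothelial cells they were at 16933 CPM in sham d1 and 33891 in sham d14. The 9 endothelial markers there were at 17004.5 and 13339 CPM. The 9 fibroblast markers, all detected, were at 882 CPM in sham d1, 853 in sham d14, 461 in IR d1 and 1488 in MI d3. Their part was not tested.

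In MI d3 endothelial cells, where 18.0% of all genes were called, 3 of 10 tested genes that the factors are known to control rose and 2 fell. Fn1 rose by 3.37 (adjusted p = 1.14e-08) and vimentin Vim by 2.74 (1.09e-09), Cdh2 fell by 1.69 (0.00674), and Dsp went from 155 UMIs to 0 (3.34e-15). Dsp and Cdh2 were at 774 and 423 CPM in sham cardiomyocytes, and cardiomyocyte markers in endothelial wells moved the same way, a part that was not tested. Among 7 bHLH partners and Id inhibitors Hand2 (2.32, 0.00141) and Id2 (1.49, 0.00754) rose, while Id1 fell by 2.28 (7.13e-07) and Id3 by 1.13 (0.0111). Of 12 TGF-beta and Smad genes 3 rose: Tgfbr2 (1.22, 0.00466), Tgfb1 (1.79, 0.0331) and Bmp2, with 161 UMIs against 1 (7.67e-10). Of 14 corepressors and chromatin partners 3 rose, Ezh2 (2.27, 0.00641), Rbbp7 (1.51, 0.00106) and Smarca4 (1.10, 0.0200). Tbx20 and Wt1 fell by 2.28 (0.00783) and 1.69 (0.00785) among 9 mesenchymal factors, and of 9 macrophage transcription factors 2 rose and 1 fell. In IR d1 against sham d1 Itga5 rose by 2.00 (0.00573), while Dsp fell by 3.21 (8.27e-06) and Cdh2 by 2.16 (0.0106).

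Zeb2 in macrophages was at 442, 520 and 647 CPM on the sham d1 plates. It was at 177 to 461 at IR d1 (median 351, 9 plates), 247 to 298 at IR d3 (median 268, 6 plates) and 248, 265, 278, 306 and 335 at MI d3, so that all day 3 plates lay below all sham d1 plates. No sham d14 plate had 5 macrophages, and the 7 of that group together had 295 CPM [142 to 543] from 10 UMIs, within the range of the day 3 plates. The log2 differences were -0.47 ± 0.33 in MI d3 (adjusted p = 0.523), -0.77 ± 0.34 in IR d3 (0.305) and -0.50 ± 0.32 in IR d1 (0.564), none past the threshold. DESeq2 called the day 3 differences (-0.99, adjusted p = 0.00927, and -1.002, 0.0104), RLE scaling in edgeR did not (0.0748 and 0.0656), and with plates of 1 macrophage or more included the signs turned (0.38 and 0.13). Of 4, 1, 2, 4 and 2 members with at least 20 UMIs, 0 passed in MI d3 against sham (1.25% of all genes), IR d1 against sham d1 (0.699%), IR d3 against sham (1.35%), MI d3 against IR d3 (6.52%) and IR d3 against IR d1 (15.5%). The unadjusted p was under 0.05 for 1 member, Zeb2 in IR d3 against sham.

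The clusters that held the macrophages differed by group. Cluster 2 (Ccr2 and Cd74) held 219 of 281 MI d3 macrophages and 94 of 111 at IR d1, cluster 8 (Gpnmb and Ms4a7) 141 of 194 at IR d3, and cluster 12 (Cd163 and Lyve1) 13 of 21 in sham d1. Within cluster 12 Zeb2 was at 476 CPM [339 to 651] in sham d1, 334 [233 to 465] in IR d1, 239 [161 to 341] in IR d3 and 223 [199 to 249.2] in MI d3. Within cluster 2 it was at 557 [403 to 750] in 8 sham d1 cells, 347 in IR d1, 300.7 in IR d3 and 310 in MI d3. Summed cardiomyocyte markers in macrophage wells were 1571 to 2675 CPM on the sham d1 plates, 137 to 1022 at IR d1, 670 to 3568 at IR d3 and 151 to 764 at MI d3, and their part was not tested. Of 10 macrophage transcription factors, 2 fell in IR d3 against sham (1.35% of all genes), Klf4 by 2.33 (adjusted p = 0.00105) and Cebpb by 1.89 (0.00528), and 0 passed in MI d3 (1.25%).

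Over whole plates, which need no cell classes, Zeb2 rose at day 3 of both injuries. It ran from 8.86 to 116 CPM on the sham d1 plates (median 85.5) and from 7.30 to 90.6 on the sham d14 plates (33.3). IR d1 plates had 91.6 to 247 (158), IR d3 plates 120 to 195 (168) and MI d3 plates 176 to 208 (191), while IR d14 plates had 30.6, 56.5 and 59.6. All day 3 plates lay above all sham plates. The log2 rise was 1.74 ± 0.35 in MI d3 (adjusted p = 5.78e-05) and 1.45 ± 0.35 in IR d3 (0.00225), and 0.93 ± 0.40 in IR d1 (0.0927) missed the threshold. The IR d1 difference passed by totals (1.14, adjusted p = 0.0318) and not with RLE scaling (0.0756). With sham d1 alone as control the IR d3 value was 1.02 (0.114). The median share of cells that were macrophages was 6.13% in sham d1, 1.54% in sham d14, 23.3% in IR d1, 32.7% in IR d3 and 39.6% in MI d3, and 0% in IR d14. On sham d14 replicates 3 and 4, 87.0% and 100% of cells fitted no marker list and none was a cardiomyocyte. For whole plates, fewer cells of a type and less RNA per cell cannot be told apart.

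**Figure D4:**
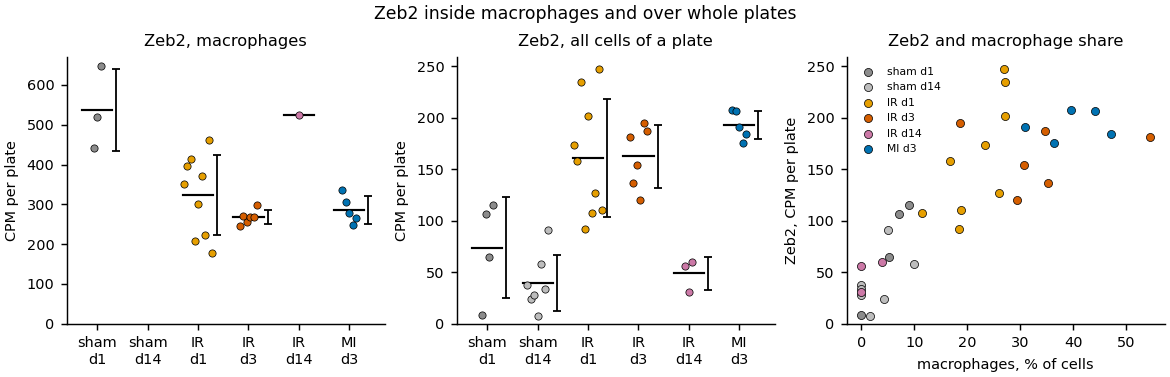
Zeb2 in CPM per plate inside macrophages (left, plates with at least 5 macrophages) and over all cells (middle), by group with mean (line) and SD (bar), and whole-plate Zeb2 against the percentage of cells that were macrophages (right, 1 point per plate). Inside macrophages the sham d1 plates (442 to 647 CPM) lie above all day 3 plates (335 or less), and over whole plates the day 3 plates (120 CPM or more) lie above all sham plates.

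Snai1 and Twist1 also rose over whole plates. Snai1 had a median of 6.55 CPM in sham d1 (0 to 11.2) and 0 in sham d14 (0 to 10.9), against 46.8 in IR d1 (23.7 to 115), 6.66 in IR d3 (0 to 21.2) and 85.5 in MI d3 (56.5 to 124). The IR d1 and MI d3 plates lay above all sham plates and the IR d3 plates overlapped them. The rise was 3.69 ± 0.42 in MI d3 (adjusted p = 1.05e-09) and 2.65 ± 0.54 in IR d1 (0.000224). From IR d1 to IR d3 Snai1 fell by 1.85 ± 0.43 (0.00168), and MI d3 was above IR d3 by 2.81 ± 0.44 (5.52e-06).

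Twist1 had medians of 1.11 CPM in sham d1 and 0 in sham d14 (highest 22.2), 21.6 in IR d1 (10.8 to 35.4), 18.5 in IR d3 (4.01 to 56.5) and 39.0 in MI d3 (22.6 to 53.0). It rose by 3.28 ± 0.48 in MI d3 (adjusted p = 3.42e-07), 3.10 ± 0.72 in IR d1 (0.00109) and 1.87 ± 0.62 in IR d3 (0.0267). The sham d1 plates held 4 UMIs of it. With 1 plate left out the IR d1 value ran from 2.49 to 4.68 and was called in 5 of 5 fits. The IR d3 call was lost with sham d14 alone as control (1.17, 0.276) and without sham d1 replicate 1 (0.0510), 2 (0.0527) or 3 (0.0904). MI d3 exceeded IR d3 by 1.41 ± 0.46 (0.0401), a call made in 4 of 10 other settings and lost with RLE scaling (0.0940), by totals (0.0562) and without MI d3 replicate 1 (0.0795), 3 (0.122), 4 (0.0568) or 5 (0.116).

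Twist2 ran from 6.17 to 20.1 CPM at MI d3 (median 12.6), 0 to 3.43 at IR d3 (0) and 0 to 14.4 at IR d1 (6.98), against a median of 2.63 in sham d1 and 0 in sham d14. It was higher in MI d3 than IR d3 by 2.86 ± 0.64 (adjusted p = 0.00154) and lower in IR d3 than IR d1 by a log2 difference of -1.89 ± 0.69 (0.0467), a call made in 5 of 9 other settings, with a highest adjusted p of 0.127 (wells of at least 2000 UMIs). Against sham it rose by 1.15 ± 0.46 in MI d3 (0.0389), a call made in 5 of 11 other settings and lost among others with RLE scaling (0.89, adjusted p = 0.110) and DESeq2 (0.85, 0.222). The call was kept in 3 of 10 fits that left out 1 plate and lost in the other 7: sham d1 replicate 1 (0.0948), 2 (0.0729) or 4 (0.0858), sham d14 replicate 7 (0.0731) and MI d3 replicate 1 (0.0785), 3 (0.156) or 5 (0.0649). In IR d3 against sham Twist2 was at -1.71 (adjusted p = 0.0825), which passed with RLE scaling (-1.92, 0.0429). Zeb1 and Snai2 did not pass against sham, at -0.45 ± 0.30 (0.227) and -0.88 ± 0.39 (0.0571) in MI d3, and, for Zeb1, -0.83 ± 0.34 (0.0783) in IR d3. With RLE scaling both passed in MI d3 (Zeb1 -0.75, adjusted p = 0.0128, and Snai2 -1.27, 0.0276) and Zeb1 passed in IR d3 (-0.98, 0.0130). In all, 4 of 6 members passed in MI d3 against sham (46.5% of all genes), 2 in IR d1 against sham d1 (22.4%), 2 in IR d3 against sham (19.7%), 0 of 4 in IR d14 against sham d14 (0.0192%, with 0 at an unadjusted p under 0.05 and 0 by DESeq2), 3 in MI d3 against IR d3 (10.5%) and 2 in IR d3 against IR d1 (18.3%). The median share of fibroblasts was 4.66% in sham d1, 1.56% in sham d14, 10.4% in IR d1, 7.20% in IR d3 and 19.1% in MI d3.

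Cardiomyocytes held few UMIs of any member. Zeb2 was found in 76 of 1152 cells, with 103 UMIs, and by group at 11.5 CPM in sham d1 (10 UMIs in 237 cells), 12.4 in sham d14 (8 in 210), 37.7 in IR d1 (4 in 34), 26.4 in IR d3 (35 in 299), 20.8 in IR d14 (30 in 353) and 69.6 in MI d3 (16 in 19). The 16 MI d3 UMIs lay in 6 cells, 7 of them in 1 cell. Without the cells that held other classes' markers, Zeb2 was at 10.5 CPM in sham d1, 12.4 in sham d14, 24.8 in IR d3, 21.0 in IR d14 and 67.4 [37.7 to 111] in MI d3 (15 UMIs in 16 cells). All 19 MI d3 cardiomyocytes and 148 of 299 in IR d3 lay in 1 of the 4 cardiomyocyte clusters, which had 40.0 CPM [28.8 to 54.1] of Zeb2 against 12.7, 16.7 and 22.6 in the other clusters, so group and cluster cannot be told apart for MI d3. On plates with at least 5 cardiomyocytes sham ran from 0 to 22.6 CPM, and the MI d3 plates had 25.3 and 90.5, from 6 UMIs. The IR d1 plates had 41.5, 49.6 and 54.3 CPM, the IR d3 plates 0 to 65.9 with 2 of 5 at 0, and the IR d14 plates 18.4, 20.9 and 21.8.

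None of the Zeb2 differences in cardiomyocytes passed the edgeR test: 1.11 ± 0.85 in MI d3 against sham (adjusted p = 0.385), 0.96 ± 0.55 in IR d3 (0.404) and 0.82 ± 0.69 in IR d14 against sham d14 (0.918), with the median gene at -0.88, 0.05 and 0.18. The MI d3 value for Zeb2 moved with the scaling, to 1.59 (adjusted p = 0.221) with RLE and 2.04 (0.101) by library totals, where the median gene was at -0.47 and -0.05. With all plates of 1 cardiomyocyte or more, which brought in all 16 MI UMIs, the MI d3 value was 1.83 (0.00950), and with a coarser clustering it was 2.17 (0.00965). Of 2, 1, 2, 2, 2 and 2 members with at least 20 UMIs, 0 passed in MI d3 against sham (14.1% of all genes), IR d1 against sham d1 (5.53%), IR d3 against sham (4.67%), IR d14 against sham d14 (0.182%), MI d3 against IR d3 (8.54%) and IR d3 against IR d1 (3.12%), with 0 at an unadjusted p under 0.05 and 0 by DESeq2.

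Fibroblast and mural cells also held Zeb2, and their markers were seen in these wells. Summed fibroblast markers ran from 608 CPM in sham d14 to 3589 in IR d3. They were at 1434 CPM in cardiomyocytes with Zeb2 and 1893 in the rest, and mural markers at 779 and 444. Their part was not tested. Macrophage RNA was also present in these wells. As a share of the level in macrophages of the same group, Zeb2 in cardiomyocytes was 2.24% [1.07 to 4.11] in sham d1, 4.20% [1.81 to 8.28] in sham d14, 11.1% [3.01 to 28.3] in IR d1, 9.78% [6.81 to 13.6] in IR d3, 3.97% [2.68 to 5.67] in IR d14 and 23.9% [13.7 to 38.8] in MI d3. The 10 macrophage markers summed were at 0.747%, 0.465%, 5.19%, 7.21%, 0.285% and 2.56% in the same order. Zeb2's interval lay above the marker value in both sham groups, IR d14 and MI d3, and included it in IR d1 and IR d3. Of the 76 cardiomyocytes with Zeb2, 32 had no macrophage marker UMI, 19 of 21 at IR d14 and 0 of 6 at MI d3. Among cardiomyocytes without Zeb2 this was 288 of 332 at IR d14 and 0 of 13 at MI d3, so at MI d3 the measure does not tell the cells apart. Cells with Zeb2 had a median of 5577 UMIs against 2212 in the rest, but in MI d3 the medians were 3260.5 and 12482.

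**Figure D5:**
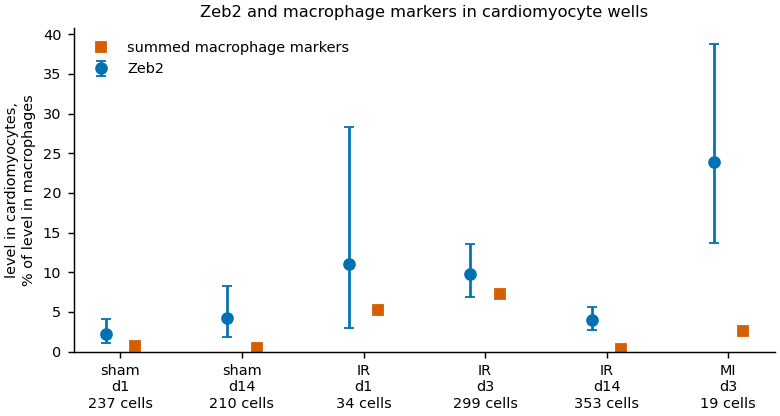
Level of Zeb2 in cardiomyocyte wells as a percentage of its level in macrophages of the same group (circles, 95% exact Poisson interval of the cardiomyocyte count), beside the same percentage for the 10 summed macrophage markers (squares), by group with the number of cardiomyocytes. Zeb2 lies at 23.9% in MI d3 against 2.56% for the markers, and at 9.78% against 7.21% in IR d3.

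Zeb1 was in 109 cardiomyocytes (166 UMIs), at 11.3 to 42.9 CPM on the sham d1 plates, 0 to 91.1 on the sham d14 plates, 16.7 to 44.1 at IR d14 and 0 to 61.2 at IR d3, with overlap. Snai2 gave 22 UMIs, Snai1 5, Twist2 2 and Twist1 0 in this class.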

How the data were processed

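Per-well tables of UMI counts were used as the authors deposited them, 36 tables with 1 row per gene and 1 column per well. The authors sorted live cells from digested tissue into plates, made SORT-seq libraries, and aligned reads with BWA to GRCm38 (mm10, both from the submitters' processing notes), and the values are raw counts per gene, whole numbers in all cells of the tables. The study also discarded mitochondrial counts, and these were left out here. No column belonged to another series (0 columns). Total counts per plate stand in the range 176614 to 5551870 UMIs, which limits the precision for genes as low as these.

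Wells of at least 1000 UMIs were clustered with scanpy 1.11.5 and leidenalg 0.10.2 (Python 3.11.15) without the 6 genes and named by marker genes. Doublets were not called, since the authors sorted for single cells, and whether each well held 1 cell was not tested. As an alternative, cells holding other classes' markers (at least 0.25 of their own class's) were left out. This kept 1130 of 1175 cardiomyocytes, 272 of 293 fibroblasts, 126 of 410 endothelial cells, 397 of 620 macrophages, 92 of 156 neutrophils and 5 of 21 mural cells. Counts were summed per plate and class (at least 5 cells, and 10 wells for whole plates), genes with at least 10 UMIs were kept, and the edgeR 4.0.16 quasi-likelihood test (R 4.3.3) with TMM scaling was run over all genes with Benjamini-Hochberg adjustment at 0.05. Results are given for members with at least 20 UMIs in a comparison. Both sham groups, weighted equally, were the control of day 3. The named genes were the 6 members, list genes past the threshold (at most 4 per list and comparison, largest change first) and, of the 5 genes most like each member, up to 2, with some items not reported here. The members and lists were chosen with earlier results of these data known. Alternatives were RLE scaling, DESeq2 1.42.0, filters, well and cell minimums, other clusterings, copied wells kept, other controls, a replicate block and each plate left out. Same-numbered plates did not deviate together (median correlation -0.00343 over 59 pairs, 13 of them above 0.1), so the numbers were not used as pairs. The test was checked on simulated data, where in fibroblast sums TMM scaling shifted unchanged genes upward and few of the changed genes were recovered, while over whole plates most were.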

Additional observations from a re-analysis of the deposited data

Results flagged for a closer look

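In 12 of 80 groups of 4 to 10 plates the highest or lowest plate stood apart from the rest. Chance gives about 1 in 20 for continuous values, a rate that does not hold for sparse counts, where a single UMI among plates at 0 stands apart. For Snai1 these were IR d1 replicate 6 over whole plates (115 CPM, others 23.7 to 65.0), and in endothelial cells MI d3 replicate 3 (80.2, others 25.0 to 39.0), sham d1 replicate 3 (15.1, others 0) and sham d14 replicate 1 (6.73, others 0, from 1 UMI). For Snai2 it was IR d3 replicate 4 in macrophages (7.13 CPM, others 0 to 1.48). For Twist1 it was MI d3 replicate 2 in fibroblasts (57.8, others 92.3 to 98.1). For Twist2 these were IR d3 replicate 7 (3.43, others 0 to 0.729) and sham d1 replicate 3 (8.43, others 2.21 to 2.89), both over whole plates. For Zeb1 these were IR d3 replicate 3 over whole plates (73.5, others 30.3 to 45.3, from 7 UMIs) and MI d3 replicate 4 in macrophages (5.04, others 12.2 to 15.1). For Zeb2 these were sham d14 replicate 8 in endothelial cells (112, others 11.8 to 26.9, from 5 UMIs) and IR d3 replicate 5 in fibroblasts (149, others 61.1 to 71.99, from 6 UMIs).

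The change at day 3 differed between permanent ligation and reperfusion by the edgeR test of MI d3 against IR d3. The log2 difference was 2.81 for Snai1, 1.41 for Twist1 and 2.86 for Twist2 over whole plates, and 1.52 for Snai1 in fibroblasts. The Twist1 call held in 4 of 10 other settings and 1 of 5 fits without 1 plate, and the fibroblast Snai1 call in 12 of 16 and 5 of 9. MI plates also differ in protocol label and depth, which cannot be told apart from the ligation.

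The 10678 wells under 1000 UMIs, used in no comparison, also held the members, with 149 UMIs of Zeb1, 246 of Zeb2, 42 of Snai1, 45 of Snai2, 18 of Twist1 and 14 of Twist2.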

How the results depend on the processing

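Calls of a member within a class numbered 3 in MI d3 against sham, 2 in IR d1, 0 in IR d3, 1 in MI d3 against IR d3 and 1 in IR d3 against IR d1. In MI d3 against sham this became 1 with sham d14 alone, with cells holding other classes' markers left out, and with 10 cells per plate, but fibroblasts had too few sham plates to be tested with sham d14 alone or 10 cells, and endothelial cells were not tested with markers left out. With RLE scaling it was 2, where Snai1 (0.0536) and Twist1 (0.0585) in fibroblasts were lost and Snai2 in endothelial cells (0.0454) was added. In IR d1 it became 1 with RLE scaling or filterByExpr, and 0 by totals, with DESeq2, with other classes' markers left out, with 10 cells per plate and with the replicate block, and 0 to 3 with 1 plate left out. In IR d3 against sham it became 1 with DESeq2, with no filter and with 1 cell per plate. In MI d3 against IR d3 it became 0 with RLE scaling, DESeq2, filterByExpr or wells of 2000 UMIs, 2 with 10 cells per plate, and 0 to 1 with 1 plate left out. In IR d3 against IR d1 it became 0 with the replicate block, other classes' markers left out, 10 cells and 1 cell per plate, where the 10-cell minimum left fibroblasts untested, as it also did in IR d1 against sham d1. Over whole plates IR d3 against sham went from 2 to 4 with RLE scaling, to 1 with sham d1 alone, sham d14 alone or the replicate block, and 1 to 3 with 1 plate left out. MI d3 against IR d3 went from 3 to 1 with filterByExpr, and IR d3 against IR d1 from 2 to 1 with the replicate block.

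Signs turned for Zeb2 in macrophages with plates of 1 cell or more (0.38 in MI d3 and 0.13 in IR d3), and for Twist2 in fibroblasts of MI d3, which ran from -0.54 to 0.061 with 1 plate left out and was positive without sham d1 replicate 3. The cause was not tested. Of 69 other uncalled differences 29 changed sign in at least 1 alternative. Of 510 fold changes under other settings 444 kept their direction and their side of the threshold, and 253 of 285 did with 1 plate left out. DESeq2 gave no adjusted p for Snai2 in IR d1 endothelial cells. Scaling by totals and leaving out IR d1 replicate 9 or sham d14 replicate 7 were chosen after seeing the data.

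The percentage of calls in the upward direction moved with scaling (TMM, RLE, totals): 65.8%, 45.1% and 50.2% in IR d1 fibroblasts, 32.7%, 54.1% and 74.9% in MI d3 cardiomyocytes, 21.4%, 82.3% and 80.3% in IR d1 cardiomyocytes, 51.3%, 8.39% and 14.4% in MI d3 macrophages, 57.1%, 45.7% and 57.1% in MI d3 endothelial cells, and over whole plates 57.4%, 44.7% and 62.0% in MI d3, 45.6%, 45.5% and 61.7% in IR d1 and 58.5%, 48.4% and 64.3% in IR d3, all against sham. In MI d3 against IR d3 fibroblasts it was 47.8%, 19.9% and 36.5%. Sham fibroblasts and macrophages were few, and single UMIs set several control values.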

Other observations

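In the 438 cells that matched no marker list, Snai2 was at 51.9 CPM [40.1 to 66.0] from 66 UMIs, above its 27.4 in fibroblasts, with all groups pooled. The 2 pools differ in group make-up, since MI d3 gave 20 of the 66 UMIs and 187 of the 242 in fibroblasts. Snai2 was at 62.7 CPM [45.4 to 84.5] in cluster 7, where no fibroblast marker was raised, at 59.0 [37.4 to 88.6] in cluster 6, where 4 were, and at 0 in cluster 14. Among macrophage clusters at IR d3, Zeb2 was at 268 CPM [246 to 292] in cluster 8, 300.7 [233 to 382] in cluster 2 and 239 [161 to 341] in cluster 12, with overlapping intervals.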
